A study of Mus musculus with 6 samples.

Results

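Endothelial cells carry surface and secreted proteins that few other cells make, and 10 of their genes were described here: Clec14a, Cd93, Mmrn2, Emcn, Cd34, Robo4, Plvap, Icam2, Egfl7 and Vwf. The genes were chosen by name, and each matched 1 of the 55232 features in the table of read counts. RNA came from pulmonary microvascular endothelial cells of the mouse, which the labels call a cell line. They grew in the lower chamber below TCMK-1 cells, which are mouse tubular epithelial cells of the kidney. In the repletion group (n = 3), the TCMK-1 cells had been depleted of ATP and then repleted with it, a treatment the labels call IR. In the control group (n = 3), the TCMK-1 cells were untreated. Co-culture lasted 12 h in both groups, and the endothelial cells themselves were untreated in both. The sources used here name neither the agent that depleted ATP nor the origin of the endothelial line. Whether the 3 samples of each group were grown as separate cultures is not stated. The p-values therefore cover no more than sample-to-sample spread, and that spread may be technical.

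These proteins sit at different places of the vessel wall. CLEC14A and CD93 are related C-type lectins of the endothelial surface, and both bind the matrix protein multimerin 2, the product of Mmrn2. CD34 and endomucin (Emcn) are sialomucins that coat the side facing the blood, where they can hold leukocytes off or, with the right sugars, bind selectins. ROBO4 is a receptor that stabilises vessels, PLVAP forms the diaphragms of caveolae and fenestrae, and ICAM2 is an adhesion molecule of endothelial junctions. EGFL7 and von Willebrand factor (Vwf) are secreted, the first into the matrix and the second from Weibel-Palade bodies, the storage granules of endothelium.

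The libraries held 15582349 to 17817618 counts. The label of the cells was checked against defining endothelial genes: Cdh5 averaged 538 ± 72.9 CPM (counts scaled to the library total with TMM factors) in the repletion group and 578 ± 72.4 in the control group (SD, n = 3 each), and Tie1 averaged 391 ± 23.0 and 422 ± 33.7 CPM in the same order. Cdh5, Tie1, Pecam1 and Kdr did not differ between the groups at an adjusted p under 0.05 in edgeR. At that threshold Tek, Flt1, Eng and Erg rose in the repletion group, by 0.58, 0.93, 0.69 and 1.06 on the log2 scale. Esam fell by 0.46. Of the pan-endothelial genes, Cldn5, the main claudin of endothelial tight junctions, was almost without reads, at 0, 3 and 0 counts in the repletion libraries and 0 counts in each control library. Cldn5 was singled out after its values were seen. Cyyr1 and Tspan18, of the same list, were also too low to be tested. In whole-culture RNA, fewer cells expressing a gene and less RNA per cell cannot be told apart.

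In the repletion group the 10 marker genes moved in both directions. Icam2, Cd93, Robo4, Egfl7 and Clec14a rose, by 1.34-fold for Egfl7 to 3.85-fold for Clec14a. Cd34, the most abundant of them, fell to 0.761 times its control level, and Vwf fell to 0.734 times. The fall of Vwf did not pass in 7 of 16 alternative fits, while that of Cd34 passed in all 16. Emcn, Plvap and Mmrn2 did not pass. All 10 genes passed the filter on low counts. Thus 5 of 10 rose, beside 20.5% of all 13804 features tested, and 2 of 10 fell, beside 19.2%, at an adjusted p under 0.05 in edgeR's quasi-likelihood test. Together 7 of 10 passed, beside 39.7% of all features. The share that fell is near that of all features. The median log2 fold change was 0.32 over the 10 genes and 0.00 over all features tested. Of the 10, 2 (Clec14a and Icam2) changed at least 2-fold and passed, beside 10.3% of all features that did both.

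Without overlap between the groups, 5 genes were higher in every repletion sample than in every control sample, beside 25.0% of all features tested, and 3 were lower, beside 25.4%; the 8 together stand beside 50.3%. The 5 higher ones were those that rose, and the 3 lower ones were Cd34, Vwf and Emcn. The summed level of the 10 genes was 1808, 1607 and 1747 CPM in the repletion samples, against 1951, 1867 and 1879 CPM in the control samples. Cd34 alone made up 52.6% to 57.4% of that sum in the repletion samples and 65.6% to 66.2% in the control samples. The sum was therefore lower in the repletion group while 5 of the genes were higher.

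**Figure D1:**
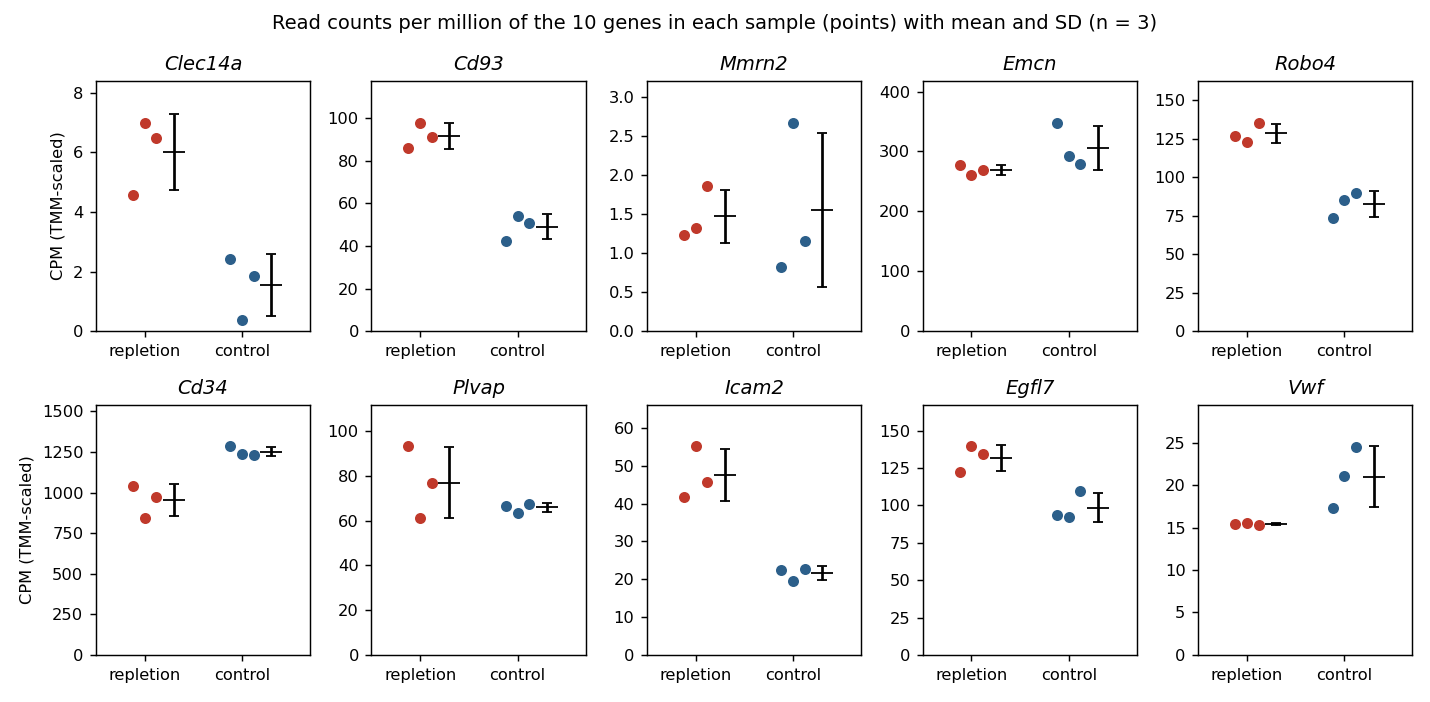
Level of each of the 10 genes in CPM (linear axes from 0), with 1 point per sample, repletion on the left and control on the right, and the mean with its SD (n = 3) beside the points. For Icam2 the repletion samples lie between 41.8 and 55.1 CPM and the control samples between 19.4 and 22.7 CPM, while for Plvap the groups overlap.

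**Figure D2:**
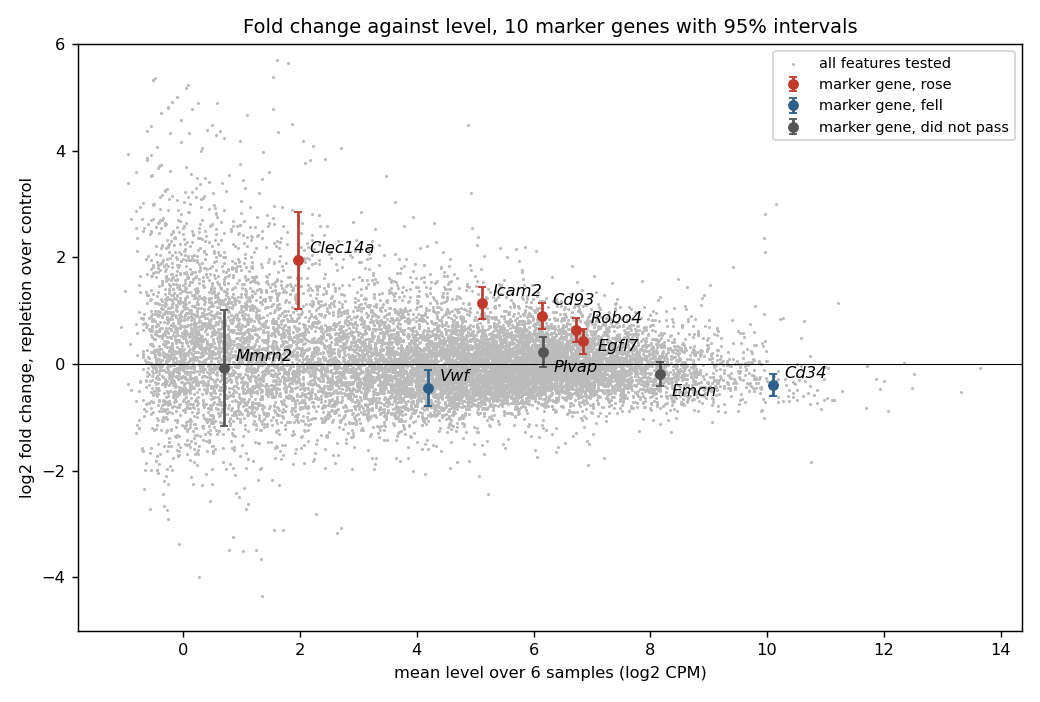
Log2 fold change of repletion over control against the mean level in log2 CPM for all 13804 features tested (grey) and the 10 marker genes (coloured by their call, bars are 95% intervals). Clec14a, at 1.95, and Icam2, at 1.14, lie highest of the 10, and the widest interval is that of Mmrn2, the gene with the fewest reads.

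Promoter sequence was given for 5 of the 10 genes in the RefSeq table (GRCm38.p6). The windows of Egfl7, which rose, lie inside its deposited gene span, so only the other 4 genes are shown. Genes that rose (Clec14a, Robo4) can so be read beside Cd34, which fell, and Emcn, which was lower in every repletion sample but did not pass. Each line gives the plus or minus strand on which the gene lies, 5′ to 3′, from 250 bases before the RefSeq start up to the last base before the gene starts in the deposited table or in RefSeq, whichever start comes first. Capitals mark AGGAAG or its reverse complement, a form of the site bound by ETS factors, the family of ERG and FLI1.
Clec14a, minus strand, chr12:58269291-58269508: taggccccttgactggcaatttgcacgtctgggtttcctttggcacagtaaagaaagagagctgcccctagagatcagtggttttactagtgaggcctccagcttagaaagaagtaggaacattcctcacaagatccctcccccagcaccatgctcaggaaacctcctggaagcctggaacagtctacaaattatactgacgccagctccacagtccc
Robo4, plus strand, chr9:37401722-37401896: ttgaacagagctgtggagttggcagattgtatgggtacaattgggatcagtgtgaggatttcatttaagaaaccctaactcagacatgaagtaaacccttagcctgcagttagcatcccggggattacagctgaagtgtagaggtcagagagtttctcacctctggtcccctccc
Cd34, plus strand, chr1:194938571-194938818: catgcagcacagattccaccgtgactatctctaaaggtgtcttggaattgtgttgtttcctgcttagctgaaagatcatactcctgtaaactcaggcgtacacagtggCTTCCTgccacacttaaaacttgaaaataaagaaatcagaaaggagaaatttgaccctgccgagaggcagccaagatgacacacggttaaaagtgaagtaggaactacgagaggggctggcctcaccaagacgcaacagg
Emcn, plus strand, chr3:137340828-137341066: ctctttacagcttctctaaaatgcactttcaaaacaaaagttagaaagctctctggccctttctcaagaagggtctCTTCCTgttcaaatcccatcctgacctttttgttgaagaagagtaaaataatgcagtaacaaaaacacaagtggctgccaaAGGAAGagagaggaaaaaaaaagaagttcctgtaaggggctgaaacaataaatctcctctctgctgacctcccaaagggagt

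Over the 250 bases before each RefSeq start, both strands searched, AGGAAG was found in the windows of Robo4, Cd34 and Emcn and in 2 of the 3 windows of Egfl7, so in 5 of 7 windows of these genes. Of all 32851 promoter windows, 29.5% held it. The Robo4 match lay 49 to 44 bases before the RefSeq start, past the end of the stretch shown, and the Clec14a window held none. The other ETS form searched, CCGGAA, and the GATA site AGATAA were in none of the 7 windows, beside 12.0% and 9.99% of all windows. The SOX site AACAAT was in 1 of 7 (Emcn), beside 9.42%, and the KLF site CACCC in 2 of 7 (Clec14a and 1 window of Egfl7), beside 52.0%. A match is a stretch of letters, not a measured site. Among the genes with a window, AGGAAG was held by Robo4 and Egfl7, which rose, Cd34, which fell, and Emcn, which did not pass. Clec14a, which rose, did not hold it.

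Both lectins rose while their matrix ligand was not seen to change. Clec14a (ENSMUSG00000045930, chr12:58264720-58269290 in GRCm38, minus strand, 1 exon) had 78, 111 and 108 counts in the repletion libraries, against 38, 6 and 32 in the control libraries. All 3 repletion values were above all control values, and control replicate 2 was the lowest. On the log2 scale the change was 1.95 ± 0.43 (SE; adjusted p of 0.00189), and it lay between 1.48 (without control replicate 2) and 2.39 (without control replicate 1) when 1 library was left out. Cd93 (ENSMUSG00000027435, chr2:148436640-148443563, minus strand, 2 exons) stood at 85.7, 97.8 and 91.0 CPM in the repletion samples, against 42.4, 53.9 and 50.7 CPM in the control samples. Every repletion sample exceeded every control sample. On the log2 scale the change was 0.90 ± 0.12 (SE; adjusted p of 2.13e-05).

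Mmrn2 (ENSMUSG00000041445, chr14:34375465-34404287, plus strand, 7 exons) had 21, 21 and 31 counts in the repletion libraries, against 13, 42 and 20 in the control libraries. The groups overlapped, and control replicate 2, the library lowest in Clec14a, was the highest in Mmrn2. Its log2 fold change was -0.07, with a 95% interval of -1.16 to 1.02 and an adjusted p of 0.925. A change of up to about 2-fold either way was therefore not excluded. Without control replicate 2 the value was 0.55. In counts, Clec14a stood at 3.71, 5.29 and 3.48 times Mmrn2 in the repletion libraries and at 2.92, 0.143 and 1.60 times in the control libraries. That ratio does not depend on how the libraries are scaled, and it was higher in all repletion libraries.

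Other members of these families also moved. Of 3 further tested genes of the lectin and multimerin families, 2 rose and 1 fell, beside 20.5% and 19.2% of all features. Emilin1 and Emilin2, which encode elastin-associated matrix proteins, rose by 0.62 ± 0.15 and 0.48 ± 0.15 (SE, log2). Thbd, the thrombomodulin gene and a lectin relative of Cd93, fell by 0.38 ± 0.11. Emilin2 did not pass without repletion replicate 3, control replicate 2 or control replicate 3 (adjusted p of 0.0568 to 0.134) or with the length and GC trend removed (0.0732). Thbd did not pass without repletion replicate 3 (adjusted p of 0.111) or without control replicate 3 (0.0579). The fourth lectin of the group, Cd248, was too low to be tested, with 6, 0 and 19 counts in the repletion libraries and 1, 4 and 0 in the control libraries, and Mmrn1, a gene of lymphatic endothelium and platelets, was at 0 counts in all 6 libraries.

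The sialomucin genes were the most abundant of the 10 and were lower in every repletion sample. Cd34 (ENSMUSG00000016494, chr1:194938819-194961279, plus strand, 7 exons) stood at 1038, 845 and 971 CPM in the repletion samples, against 1284, 1236 and 1232 CPM in the control samples. The control samples lay close together and the repletion samples spread more widely below them. Cd34 fell by 0.39 ± 0.10 on the log2 scale (SE; adjusted p of 0.00483). The antisense gene Gm16897 overlaps its exons with 118 to 184 counts per library, and without a stated strand setting the reads of the pair cannot be told apart. Emcn (ENSMUSG00000054690, chr3:137341067-137432185, plus strand, 12 exons) stood at 278, 261 and 269 CPM in the repletion samples, against 348, 292 and 279 CPM in the control samples. The groups touched without overlapping, since the highest repletion sample lay just under the lowest control sample. Its log2 fold change was -0.19, with a 95% interval of -0.41 to 0.04 and an adjusted p of 0.174. It passed once trends of the counts with length and GC were removed in each library (-0.24, adjusted p of 0.0468), with adjusted p between 0.0468 and 0.531 over its alternatives. Without control replicate 1 the value was -0.09.

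Of the relatives, podocalyxin (Podxl), another sialomucin of the CD34 family, averaged 117 ± 6.82 CPM in the repletion group and 122 ± 17.4 CPM in the control group (SD, n = 3 each), with a log2 fold change of -0.05 and an adjusted p of 0.745. Cd164, a smaller sialomucin, was at -0.19 with an adjusted p of 0.137. Muc1, an epithelial mucin gene, rose by 1.61 ± 0.59 (SE), but from 28, 20 and 22 counts in the repletion libraries against 10, 9 and 3 in the control libraries, and it did not pass in 4 of the 6 fits that left out a library. Among the 3 relatives tested, 1 thus rose and none fell, beside 20.5% and 19.2% of all features.

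The guidance receptor gene Robo4 rose with several genes of its pathway. Robo4 (ENSMUSG00000032125, chr9:37401897-37415115, plus strand, 16 exons) stood at 127, 123 and 135 CPM in the repletion samples, against 73.3, 85.5 and 89.6 CPM in the control samples. The lowest repletion sample was well above the highest control sample, and Robo4 rose by 0.63 ± 0.11 on the log2 scale (SE; adjusted p of 0.000229). Relative to Emcn in the same library, Robo4 counts stood at 0.457, 0.472 and 0.503 in the repletion libraries and 0.211, 0.292 and 0.322 in the control libraries.

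Of 9 other tested genes of SLIT and ROBO signalling, 6 rose and none fell, beside 20.5% and 19.2% of all features. The number that rose was 4 to 7 over the alternatives, and 6 to 7 over the fits without 1 library. Robo3, a divergent receptor of the family, rose by 0.77 and Slit2, a ligand gene, rose by 0.66, but stood at 0.11 with the length and GC trend removed (adjusted p of 0.573). Srgap3, which encodes a GTPase-activating protein downstream of ROBO receptors, rose by 1.43 ± 0.15 (SE), with an adjusted p of 2.78e-06, and the adhesion gene Flrt2 rose by 1.26. Unc5b, whose product is a binding partner of ROBO4, was at -0.14 with an adjusted p of 0.571. Robo2 was at 0 counts in all libraries, while Robo1 and Slit3 were below the filter.

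Plvap showed a wide spread in the repletion group. Plvap (ENSMUSG00000034845, chr8:71497765-71511752, minus strand, 6 exons) stood at 93.1, 61.1 and 76.8 CPM in the repletion samples, against 66.6, 63.6 and 67.3 CPM in the control samples. Repletion replicate 2 lay below every control sample and the other two repletion samples above them. The log2 fold change was 0.23, with a 95% interval of -0.06 to 0.51 and an adjusted p of 0.193. Without repletion replicate 2 it was 0.37 and passed (adjusted p of 0.0213), and without repletion replicate 1 it was 0.07, with adjusted p between 0.0213 and 0.708 over its alternatives. Of 9 other tested genes of caveolae, diaphragms and fenestrae, 6 rose and none fell, beside 20.5% and 19.2% of all features, with Ehd2, the gene of an ATPase at the neck of caveolae, at 1.15 ± 0.11 (SE).

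The junctional adhesion gene Icam2 had the smallest p-value of the 10. Icam2 (ENSMUSG00000001029, chr11:106377656-106388075, minus strand, 7 exons) stood at 41.8, 55.1 and 45.8 CPM in the repletion samples, against 22.6, 19.4 and 22.7 CPM in the control samples. Every repletion sample was above every control sample, and Icam2 rose by 1.14 ± 0.14 on the log2 scale (SE; adjusted p of 1.10e-05). In counts relative to Cd34, which fell, Icam2 stood at 0.0403, 0.0653 and 0.0472 in the repletion libraries and 0.0176, 0.0157 and 0.0184 in the control libraries. Of 7 other tested genes of the ICAM family, its LFA-1 receptor and the ERM linkers that bind its tail, 1 rose and 2 fell, beside 20.5% and 19.2% of all features. Itgb2, which encodes a subunit of the leukocyte integrin LFA-1, rose by 1.09 ± 0.30 (SE) from few reads and did not pass without repletion replicate 3 (adjusted p of 0.0650). Ezr, the gene of ezrin, fell by 0.82 ± 0.10, whereas moesin (Msn) and radixin (Rdx) stood at -0.22 and 0.09 with adjusted p of 0.0735 and 0.510.

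The secreted proteins divided, with Egfl7 higher and Vwf lower. Egfl7 (ENSMUSG00000026921, chr2:26580014-26593120, plus strand, 11 exons) stood at 122, 139 and 134 CPM in the repletion samples, against 93.6, 91.9 and 110 CPM in the control samples. The groups did not overlap, and Egfl7 rose by 0.42 ± 0.11 on the log2 scale (SE; adjusted p of 0.00512). Its 3′ end overlaps Agpat2 on the other strand, which stood at -0.32 with an adjusted p of 0.0827. Egfl7 also hosts the endothelial microRNA miR-126, whose hairpin lay in an intron of 7 of the 12 protein-coding Egfl7 transcripts of GENCODE M21 and outside the other 5. Its mature 3′ strand (RefSeq, GRCm38.p6, chr2:26591402-26591423, plus strand) is shown because Egfl7 is its host gene, with bases 2 to 8, the seed, in capitals.
mmu-miR-126a-3p: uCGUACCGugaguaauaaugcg

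The feature Mir126a was at 0 counts in all 6 libraries, so these data hold no measurement of the microRNA. Spred1 and Pik3r2, which are known targets of miR-126 in endothelium, rose by 0.78 ± 0.11 and 0.45 ± 0.15 (SE, log2), with adjusted p of 4.46e-05 and 0.0232. Pik3r2 did not pass without repletion replicate 1, repletion replicate 3 or control replicate 1 (adjusted p of 0.0514 to 0.116) or with the length and GC trend removed (0.0504).

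Vwf (ENSMUSG00000001930, chr6:125546774-125686679, plus strand, 56 exons) stood at 15.5, 15.5 and 15.3 CPM in the repletion samples, against 17.4, 21.1 and 24.5 CPM in the control samples. The repletion samples were nearly equal and the control samples spread above them. Vwf fell by 0.45 ± 0.16 on the log2 scale (SE; adjusted p of 0.0365). The call was lost when any library other than control replicate 1 was left out (adjusted p of 0.0507 to 0.204) and with library size only (0.0716). In the authors' deposited table its adjusted p was 0.0601. With trends of the counts with length and GC removed in each library, the value was -0.95, with an adjusted p of 0.000187; at 16064 bases, Vwf is the longest of the 10 genes.

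Of 18 other Weibel-Palade body genes tested, 4 rose, beside 20.5% of all features, and 2 fell, beside 19.2%, so the share that rose is near that of all features. Without control replicate 1, 2 rose. Edn1, the endothelin 1 gene, averaged 37.5 ± 8.68 CPM in the repletion group and 9.56 ± 2.91 CPM in the control group (SD, n = 3 each), with a log2 fold change of 1.97 ± 0.21 (SE). Angpt2, the gene of the vessel-destabilising ligand angiopoietin 2, averaged 78.3 ± 24.3 and 153 ± 26.8 CPM in the same order and fell by 0.97 ± 0.17 on the log2 scale. Selp, the P-selectin gene, rose by 0.30, but did not pass without replicate 1 or 3 of either group (adjusted p of 0.0687 to 0.138) or without a filter (0.0747), and Cd63, a granule membrane gene, fell by 0.36. The secretory regulators Rab27a and Rab3d stood at -0.24 and -0.03 with adjusted p of 0.619 and 0.902.

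Per kilobase of gene length, the order of the 10 genes changed little between the groups. In the repletion group Cd34 averaged 131 CPM per kilobase, followed by Emcn (49.8), Plvap (38.7), Egfl7 (36.9), Icam2 (25.0), Robo4 (24.3), Cd93 (13.7), Clec14a (1.31), Vwf (0.960) and Mmrn2 (0.369). The sample ranges of Plvap and Egfl7 overlapped there, as did those of Icam2 and Robo4, and all other neighbours were separate. In the control group the order of level per kilobase was Cd34 (172), Emcn (56.6), Plvap (33.1), Egfl7 (27.5), Robo4 (15.6), Icam2 (11.3), Cd93 (7.33), Vwf (1.31), Mmrn2 (0.390) and Clec14a (0.339), with an overlap of Mmrn2 and Clec14a only. Clec14a thus stood eighth in the repletion group, against last in the control group. Among all features tested its level per kilobase lay at the 21.1st percentile in the repletion group and the 8.88th in the control group, and that of Cd34 at the 97.9th and 98.3rd.

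**Figure D3:**
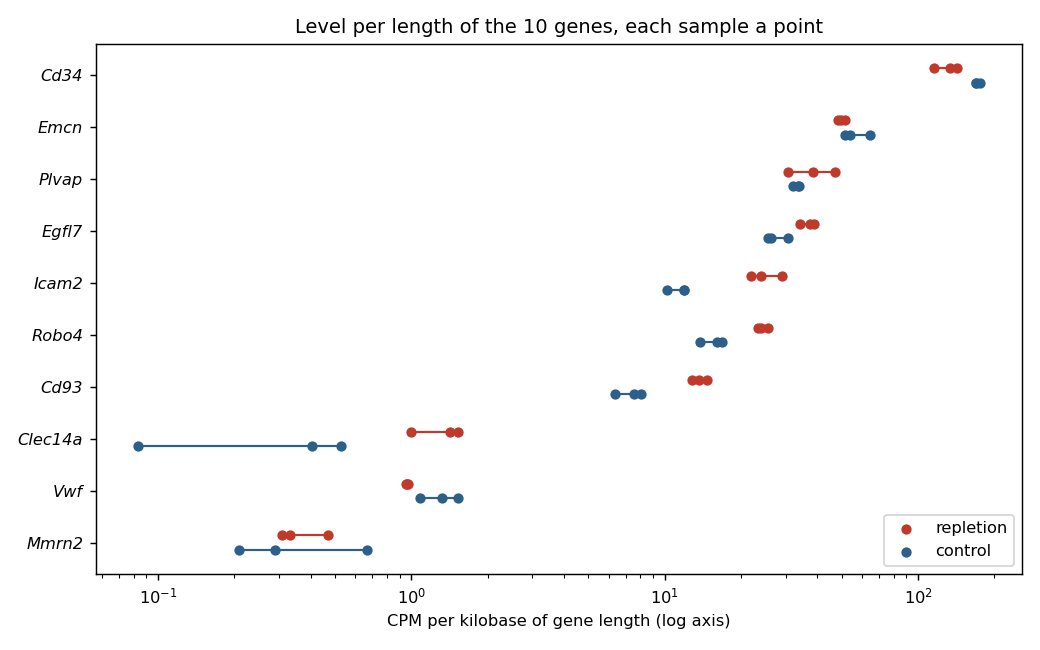
Level per length of the 10 genes in CPM per kilobase (log axis), with each sample as a point, repletion above control, and lines joining the lowest and highest sample of a group. The genes span from about 0.369 (Mmrn2) to 131 (Cd34) in the repletion group, and the control samples of Clec14a spread most widely.

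Genes around these markers were counted in 14 lists of related families and vessel types, with the 10 genes left out. Of 177 listed genes, 116 were tested, of which 54 rose, beside 20.5% of all features, and 16 fell, beside 19.2%, with a median log2 fold change of 0.31 beside 0.00 for all features. The same shares of all features stand beside the counts of each list that follows. Of 28 tested pan-endothelial genes, 17 rose and 2 fell. Fli1, the gene of an ETS transcription factor of endothelium, rose by 1.53 ± 0.15 (SE), Ptprb, a phosphatase gene of endothelial junctions that also stands in the general capillary list, rose by 0.95 ± 0.12, and the junction gene Esam fell by 0.46 ± 0.11. Markers of vessel types were partly absent. Of 18 arterial genes, 8 were at 0 counts in all libraries, among them Gja4, Gja5, Sox17 and Bmx; of the 7 tested, 5 rose and none fell, with the chemokine gene Cxcl12 at 0.72 ± 0.10. Of 10 venous genes tested, 5 rose (3 without repletion replicate 3, without control replicate 3 or without a filter) and 3 fell. Nr2f2, the gene of the vein-specifying factor COUP-TFII, rose by 1.18 ± 0.11, and Ctla2a, which is nearly identical to Ctla2b, fell by 0.85 ± 0.11.

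The lung capillary lists were thinly covered. Of 6 general capillary genes tested, 2 rose and 2 fell, and Kit, a receptor tyrosine kinase gene, fell by 0.79 ± 0.14 (SE). Of 7 tested aerocyte genes, which mark the large gas-exchange capillary cell, 2 rose (1 without repletion replicate 2, control replicate 2 or control replicate 3) and none fell, and the defining genes Car4 and Ednrb were at 0 counts. Apln, the apelin gene and a marker of both aerocytes and tip cells, rose by 1.09 ± 0.09. Of 12 tested tip cell and angiogenic genes, 4 rose and 4 fell, the lowest p among the falls being that of the adrenomedullin gene Adm, at -0.90 ± 0.12. Of 6 tested lymphatic genes, 3 rose (1 without control replicate 1, and 1 to 2 over all fits that left out a library) and 1 fell. Reln, which encodes the secreted protein reelin, rose by 2.46 ± 0.35, and Pdpn, the podoplanin gene, fell by 1.54 ± 0.55 from 12, 4 and 17 counts in the repletion libraries against 27, 24 and 44 in the control libraries. Pdpn did not pass without repletion replicate 1 or 2 or control replicate 3. The lymphatic markers Lyve1 and Flt4 rose by 0.51 ± 0.17 and 0.355 ± 0.12, with adjusted p of 0.025 and 0.026 (edgeR). Reln kept its call under all 16 alternatives, so the lost calls among the lymphatic rises were those of Lyve1 or Flt4. Of the defining lymphatic genes, Prox1 was below the filter and Ccl21a was at 0. Srgap3, Ezr, Edn1, Angpt2, Fli1, Ptprb, Nr2f2, Adm, Ctla2a, Reln, Pdgfra and Napsa overlap other annotated features in their gene spans. Whether counted exons overlap was not checked for these genes, so their values may be uncertain.

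**Figure D4:**
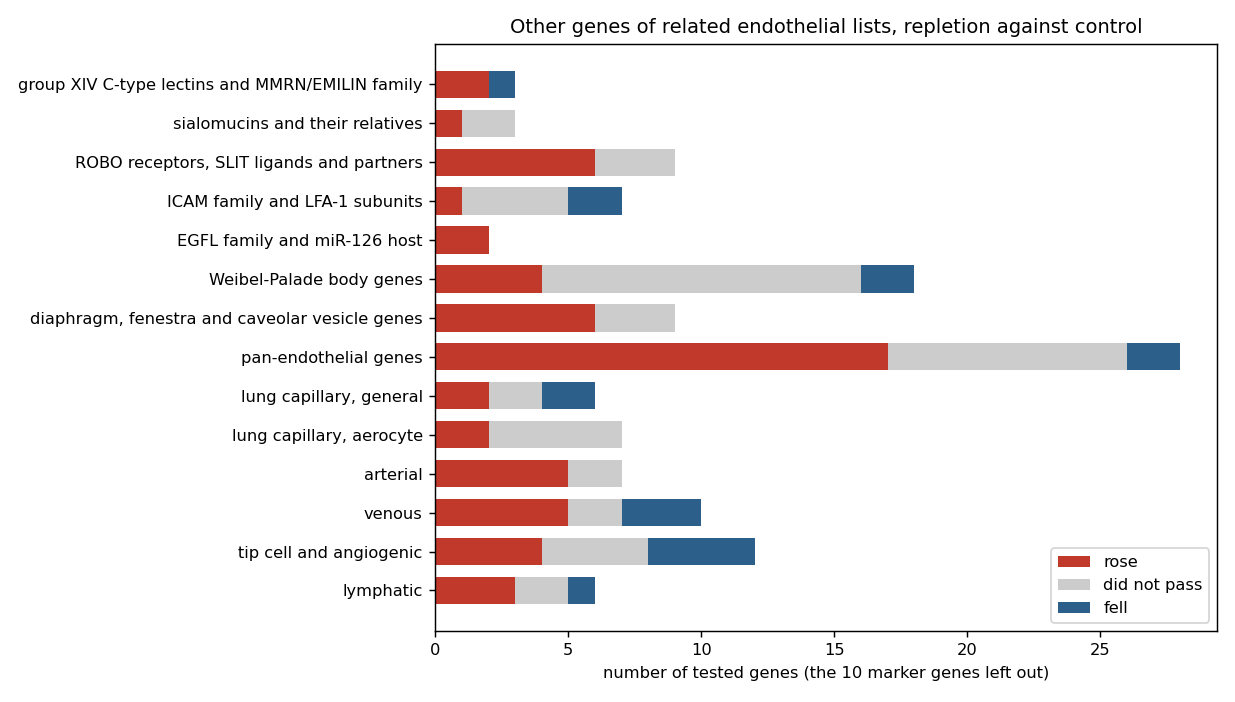
Number of tested genes in each of the 14 related lists that rose, did not pass or fell in the repletion group against the control group, with the 10 marker genes left out (a gene can stand in more than 1 list). The pan-endothelial bar holds 17 genes that rose and 2 that fell.

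Most markers of other cell types were low or at 0, but Cd68, Lcn2, Itgb3, Pdgfra and Cubn were not. Cd68 averaged 255 ± 42.1 CPM in the repletion group and 395 ± 24.0 CPM in the control group (SD, n = 3 each). Lcn2 averaged 121 ± 18.4 and 176 ± 33.6 CPM in the same order. Cd68 and Lcn2 fell, by 0.63 ± 0.12 and 0.54 ± 0.14 on the log2 scale (SE), with adjusted p of 0.000475 and 0.00476 (edgeR). Itgb3 averaged 40.0 ± 4.69 CPM in the repletion group and 43.5 ± 5.32 CPM in the control group (SD). Pdgfra averaged 15.4 ± 3.11 and 18.4 ± 1.85 CPM, and Cubn 13.8 ± 2.24 and 3.52 ± 0.41 CPM, in the same order. For comparison, Vwf averaged 15.4 and 21.0 CPM. The summed level of the 18 leukocyte markers was 223 to 309 CPM in the repletion samples and 394 to 434 CPM in the control samples, nearly all of it Cd68, a lysosomal gene; 15 of the 18 averaged under 1 CPM, and Tyrobp and Cd3e were at 0. The 24 kidney tubule markers summed to 134 to 176 CPM in the repletion samples and 159 to 228 CPM in the control samples, most of it Lcn2, a secreted lipocalin gene, and Epcam and Krt18 were at 0. The 18 fibroblast and mural markers, of which Pdgfra was the highest, summed to 22.9 to 31.3 CPM in the repletion samples and 26.6 to 28.2 CPM in the control samples. The 16 lung epithelial markers, led by Napsa, summed to 2.70 to 3.39 and 1.67 to 2.48 CPM in the same order, with Sftpc and Nkx2-1 at 0, and the 10 platelet markers, led by the integrin gene Itgb3, to 54.3 to 61.4 and 50.5 to 59.5 CPM. The leukocyte sum was lower and the lung epithelial sum higher in every repletion sample than in every control sample, and the part of either in the results was not tested.

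**Figure D5:**
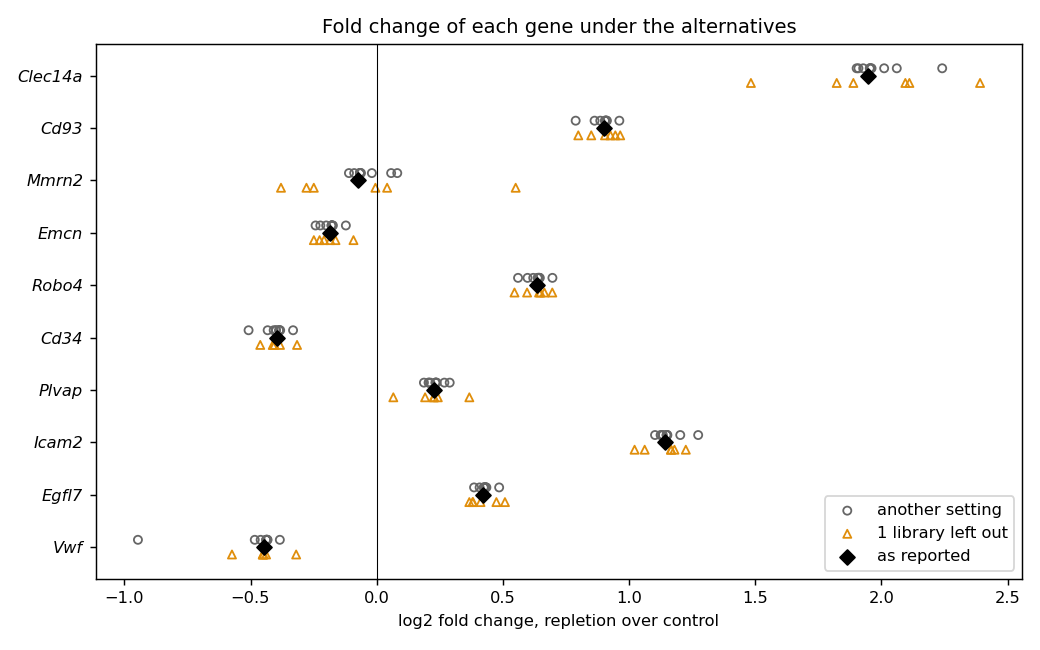
Log2 fold change of each gene, repletion over control, as reported (diamond), under 10 other settings (circles) and with 1 library left out (triangles). Clec14a stays between 1.48 and 2.39, Vwf reaches -0.95 with the length and GC trend removed, and Mmrn2 lies on both sides of 0.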

How the data were processed

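RNA-seq libraries of 6 samples were compared, 3 in the repletion group and 3 in the control group, grouped by their titles. The authors deposited 1 table with raw read counts per feature, FPKM, and their own comparison: group means of normalised counts (a signal per group), and a log2 fold change with its p-value, raw and adjusted. Units and gene lengths are given per the file headers. GRCm38.p6, DESeq2 1.20.0, HISAT2 2.0.5 and featureCounts 1.5.0-p3 are named, without roles, per the submitters' processing notes. The strand setting of the counting is not given in the sources used here. The deposited FPKM equal count over length and a constant per library, 0.981 to 1.04 times its total, and were not used for tests.

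Counts were tested in R 4.3.3 with edgeR 4.0.16: filterByExpr left 13804 features, TMM factors were 0.970 to 1.03, and the quasi-likelihood test was two-sided with Benjamini-Hochberg adjustment over all features tested and a threshold of 0.05. SE came from the F statistic, intervals are 95%, CPM are TMM-scaled, and levels per kilobase use the deposited gene length. Alternatives were DESeq2 1.42.0, limma 3.58.1 with voom, other scalings, filters, protein-coding genes only, a replicate block, each library left out, and removal of trends of the counts with length and GC per library (transcripts of GENCODE M21, GRCm38). Chi-square values between replicates were 9.20 to 26.0 per feature, above sampling noise, so each library counts once. Near copies were sought with BLAST 2.17.0 at 95% identity over at least 100 bases: 4 of the 10 genes had a match in another annotated gene, none over more than 186 bases.

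The 10 genes, the 19 lists (14 of related families and vessel types, 5 of other cell types: kidney tubule, leukocyte, fibroblast and mural, lung epithelial, megakaryocyte and platelet) and the tests were chosen with earlier results of these data known. Besides the 10 genes, the naming rule took from each related list the other gene with the smallest p among those that rose and among those that fell, and from each other list the gene with the highest mean CPM. Further genes are examples chosen after their values were seen.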

Additional observations from a re-analysis of the deposited data

How the results depend on the processing

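Clec14a, Cd93, Robo4, Icam2 and Egfl7 stayed higher and past the threshold, and Cd34 stayed lower and past it, under all 16 alternatives. The number of the 10 genes that rose was 5 to 6 over the fits without 1 library, and the number that fell was 1 to 2; it was 1 with library size only, where Vwf alone lost its call, and 3 with the length and GC trend removed, where Emcn was added. Over all features, 2188 to 3214 rose and 1912 to 3253 fell, all within 1.5 times the reported counts. Mmrn2 changed sign with limma-voom (0.082) and ranged from -0.38 to 0.55 without 1 library. Napsa ranged from -0.54 to 0.17 without 1 library. The cause was not tested. Pdgfra passed with the length and GC trend removed (-0.52, adjusted p of 0.0198). Without a filter, the median log2 fold change of all features moved to 0.13.

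No pairing by replicate number was seen: deviations of same-numbered samples correlated at -0.18, -0.13 and 0.05. With 3 samples per group, these values cannot show that the samples were unpaired. With a replicate block, 2485 features rose and 2353 fell, 5 of the 10 genes rose and 1 fell, 3 of 10 venous genes tested rose, Selp did not pass (adjusted p of 0.0796), Vwf stood at -0.43 (adjusted p of 0.0667) and Mmrn2 at 0.057. Depth limits Mmrn2 and Clec14a most, with 13 to 42 and 6 to 111 counts per library.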

Other observations

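Platelet glycoprotein Ib alpha, the receptor that binds von Willebrand factor, is encoded by Gp1ba, a gene of the platelet list. It had 44, 19 and 43 counts in the repletion libraries, against 0, 0 and 6 in the control libraries, and an adjusted p of 0.00101 (edgeR). The platelet genes Gp1bb and Ppbp were at 0 counts in all 6 libraries, while others of that list had reads. Gp9 had 149, 160 and 107 counts in the repletion libraries, against 116, 91 and 99 in the control libraries, and did not pass. Itga2b had 124, 95 and 61 counts, against 49, 73 and 56 in the same order, and did not pass either. Cubn, which encodes the endocytic receptor cubilin of kidney tubules, had 251, 179 and 259 counts in the repletion libraries, against 55, 62 and 54 in the control libraries, with a log2 fold change of 1.97 and an adjusted p of 4.19e-06. Of the other tubule genes, Slc34a1, Umod and Epcam were at 0 counts in all libraries, while Pax2 and Aqp1 had reads and did not pass. Pax2 had 173, 87 and 65 counts in the repletion libraries, against 75, 113 and 99 in the control libraries. Aqp1 had 100, 159 and 129 counts, against 113, 101 and 171 in the same order. Lcn2, also of that list, fell. Icam5, known as a neuronal member of the family of Icam2, went the other way from Icam2, with 5, 11 and 9 counts in the repletion libraries against 29, 22 and 29 in the control libraries and an adjusted p of 0.0211; it did not pass without replicate 1 or 3 of either group (adjusted p of 0.0506 to 0.0857). Gp1ba, Cubn and Icam5 were picked after their values were seen.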
